A study of Mus musculus with 16 samples.

Results

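The S phase and mitosis genes are 47 genes whose products copy the genome and divide the cell. They were chosen by name, with earlier results of these data known. The first list holds 23 genes that act in DNA replication or its control, and the second holds 24 genes that act in G2 and mitosis. All 47 were found among the 24421 genes of the tables keyed by gene symbol and among the 51912 entries of the table of normal tissues, and all 47 passed the filter on low counts in every fit.

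Polyadenylated RNA was measured in 16 libraries of mouse (C57BL/6) organoids, 3-dimensional cultures grown from tumours or from normal tissue. The tumour genotype called TMP (Trp53-/-;Myc;sgCdkn2a) makes up the groups Ctr, with 3 libraries, and Lung-Ctr, with 2. The genotype called TMPL has the same 3 alterations together with LMP1, the latent membrane oncoprotein of the Epstein-Barr virus, and makes up the groups LMP1, with 2 libraries, and Lung-LMP1, with 3. All 10 tumour libraries therefore share Trp53-/-, Myc and sgCdkn2a, the last a guide against an inhibitor of the kinases that open S phase. The tumours grew in recipient mice after orthotopic transplantation to the nasopharynx, and the labels give neither the ages of the animals nor the number of clones or animals behind a group. Normal_nasopha (n = 3) and Normal_lung (n = 3) are untreated organoids of normal nasopharynx and normal lung. Tumour groups are named by their titles, because their descriptions give all TMP libraries as primary and all TMPL libraries as metastasis, whereas the design text has both kinds of tumour in each genotype.

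Total counts ran from 12535166 to 21737184 per library, so that 3 counts correspond to 0.138 to 0.2393 CPM (counts divided by the library's total and put on a common scale), a limit that covers counting error only. In 1 table the 3 columns set beside Ctr are headed normal-lung although the table is named for normal nasopharynx. They are called the normal comparator. Across the 22573 shared gene symbols they correlated at 0.981 to 0.982 with the same-numbered Normal_nasopha library and at 0.894 to 0.911 with Normal_lung, so they are read beside Normal_nasopha and not as further samples. Epithelial markers (Epcam, Cdh1, Krt8, Krt18, Krt5, Krt14 and Trp63) had counts in every group, with summed levels of 887 to 1335 CPM in LMP1, 2467 to 5492 in the other tumour libraries and 5550 to 17862 in the comparator. The 6 leukocyte markers Ptprc, Cd3e, Lyz2, Cd68, Adgre1 and Csf1r summed to 7.86 to 41.3 CPM in tumour libraries. Fibroblast markers summed to 110 CPM in Ctr replicate 2 and to 83.4 and 40.8 in LMP1, and to at most 1.52 in the other tumour libraries. The alveolar markers Sftpc, Sftpb, Sftpa1, Ager and Nkx2-1 summed to 55449 to 64424 CPM in Normal_lung and to at most 194 elsewhere.

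A dividing cell first loads the MCM helicase onto replication origins with Cdc6 and Cdt1, then activates it with Cdc45 and the GINS complex and copies DNA with polymerases held by the sliding clamp PCNA. Genes of this phase are classic targets of E2F factors, which are released from RB proteins by cyclin-dependent kinases. Mitotic genes come on later, under FOXM1, B-MYB and the MuvB complex, and their promoters typically carry CCAAT boxes and the cell cycle genes homology region (CHR). In epithelium these genes mark the dividing basal or progenitor cells, and Mki67 is the usual marker of proliferation.

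The promoters of the members were read in RefSeq windows of 300 bases (250 before and 50 after the annotated start, GRCm38.p6), which held 39 of the 47 genes, 20 of S phase and 19 of mitosis. CCAAT, on either strand, was in 55% of the S phase windows, in 89.5% of the mitosis windows and in 41.1% of all 27025 windows. The CHR letters TTTGAA or TTCGAA, on either strand, were in 20% of S phase windows, 78.9% of mitosis windows and 21.7% of all windows. An E2F match was scored for TTTCGCGC, TTTGGCGC, TTTCCCGC or TTTGCCGC on either strand. Such a match was in 40% of S phase windows, 5.26% of mitosis windows and 2.6% of all windows. These are matches of letters and not measured binding. Matches of different motifs may share bases, and TTCGAA reads the same on both strands. The 250 bases before the start of 4 members are shown so that the letters can be seen in place, 2 from each list among the genes named in the comparisons, with matches in capitals.
Pola1 (chrX:93632156-93632405, minus strand, an S phase gene for the catalytic subunit of the priming polymerase): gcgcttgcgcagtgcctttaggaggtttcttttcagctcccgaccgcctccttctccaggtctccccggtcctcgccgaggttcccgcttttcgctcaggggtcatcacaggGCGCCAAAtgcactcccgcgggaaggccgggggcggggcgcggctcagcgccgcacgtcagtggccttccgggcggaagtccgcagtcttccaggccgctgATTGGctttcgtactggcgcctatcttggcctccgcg
Mcm2 (chr6:88898781-88899030, minus strand, an S phase gene for a subunit of the helicase): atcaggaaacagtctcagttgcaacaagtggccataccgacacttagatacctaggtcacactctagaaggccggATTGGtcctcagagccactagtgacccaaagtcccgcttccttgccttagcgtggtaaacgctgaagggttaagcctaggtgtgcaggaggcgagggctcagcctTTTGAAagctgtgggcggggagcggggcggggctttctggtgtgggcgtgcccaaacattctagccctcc
Mki67 (chr7:135716380-135716629, minus strand, the mitosis gene for the Ki-67 protein of the chromosome surface): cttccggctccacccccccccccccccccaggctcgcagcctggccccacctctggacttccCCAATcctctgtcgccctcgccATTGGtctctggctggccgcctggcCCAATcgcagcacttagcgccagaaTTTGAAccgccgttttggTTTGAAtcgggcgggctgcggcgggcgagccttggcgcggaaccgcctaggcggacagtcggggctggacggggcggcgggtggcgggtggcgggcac
Ube2c (chr2:164769679-164769928, plus strand, the mitosis gene for the ubiquitin-conjugating enzyme of the anaphase-promoting complex): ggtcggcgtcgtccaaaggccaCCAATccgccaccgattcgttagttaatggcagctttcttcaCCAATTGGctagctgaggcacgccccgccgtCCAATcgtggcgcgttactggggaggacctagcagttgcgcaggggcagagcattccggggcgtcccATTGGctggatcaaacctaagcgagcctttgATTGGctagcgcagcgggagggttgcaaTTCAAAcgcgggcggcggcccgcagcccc
Pola1 has an E2F match 138 bases before the start and a CCAAT on the opposite strand 37 bases before it. Mcm2, although an S phase gene, has no E2F match in this window and carries a CCAAT and a CHR match. Mki67 has CCAAT at 3 places and a CHR match at 2, and Ube2c has CCAAT at 6 places and a CHR match on the opposite strand 29 bases before the start.

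Every tumour library expressed both lists at high levels. In these bulk libraries more dividing cells and more RNA per dividing cell cannot be told apart. Levels here are CPM scaled by total count. The S phase genes summed to 1886 to 3987 CPM and the mitosis genes to 4817 to 7020 CPM in the 10 tumour libraries, and together they took 0.763% to 0.964% of all counts. Per kilobase of the longest transcript, median tumour levels ran from 2.96 (Gins2, a GINS subunit) to 227 CPM per kilobase (Pcna) among S phase genes, and from 17.3 (Cenpf, a kinetochore protein) to 202 (Top2a, the topoisomerase that untangles chromosomes) among mitosis genes.

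**Figure D1:**
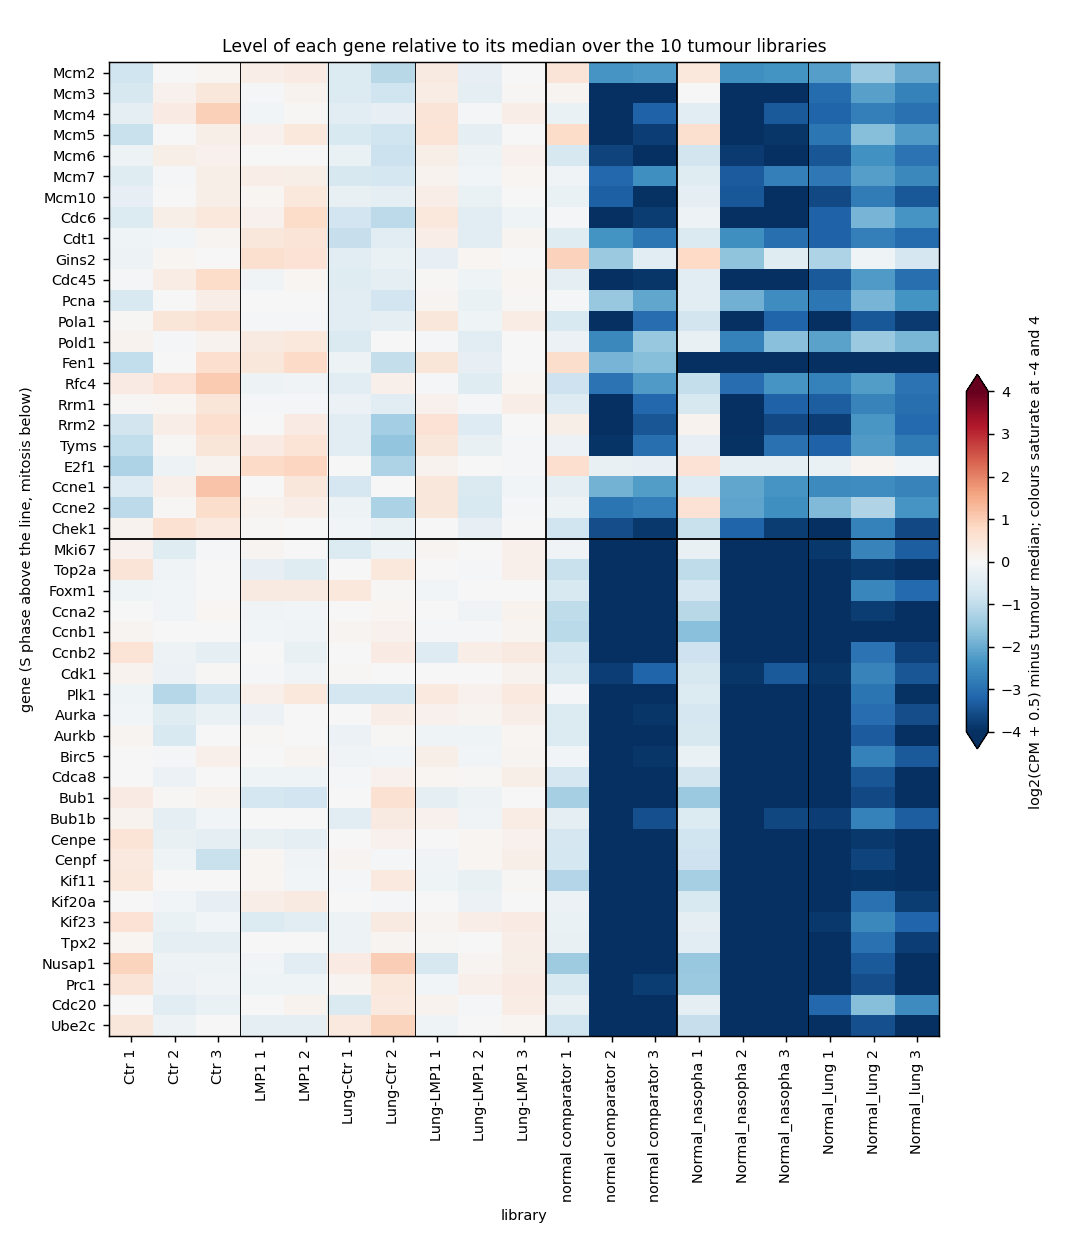
Heat map of log2(CPM + 0.5) of each of the 47 genes (rows) in each library (columns), minus the gene's median over the 10 tumour libraries; red is higher, blue lower, with colours saturating at 4 units. Tumour columns and replicate 1 of the comparator and of Normal_nasopha are pale, comparator replicates 2 and 3 are deep blue for most mitosis genes and paler for Gins2, Pcna and E2f1, and Normal_nasopha and Normal_lung were counted in a separate table, in which Fen1 is low throughout.

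The mitosis genes were held in a narrower range than the S phase genes over the 10 tumour libraries. The highest library exceeded the lowest by a median factor of 1.69 for mitosis genes and 2.65 for S phase genes, against 2.16 for the 9411 genes with a mean of at least 10 CPM. Ccna2, the cyclin that spans S phase and G2, ran from 248.5 to 299.9 CPM, a factor of 1.21. Ccnb1, the mitotic cyclin, ran from 298.5 to 373.3 CPM, and Cdk1, its kinase, from 177.7 to 230.3 CPM. Birc5, which encodes survivin of the chromosomal passenger complex, ran from 90.67 to 116.6 CPM. At the other end, Nusap1, a spindle microtubule protein, ran from 74.28 CPM in Lung-LMP1 replicate 1 to 227.9 CPM in Lung-Ctr replicate 2, a factor of 3.07.

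Among S phase genes the widest ranges were those of Tyms, E2f1 (a factor of 4.37), Ccne2 and Rrm2. Tyms, which makes thymidylate, had 20.73 CPM in Lung-Ctr replicate 2 and 90.87 CPM in LMP1 replicate 2, a factor of 4.38. Rrm2, the regulated subunit of ribonucleotide reductase, ran from 66.96 to 278 CPM, a factor of 4.15, whereas Rrm1, the large subunit, had a factor of 1.88. Of the E-type cyclins, Ccne1 ran from 28.06 to 99.41 CPM, a factor of 3.54, and Ccne2 from 4.65 to 19.76 CPM, a factor of 4.25. Cdc6 (3.48) and Fen1 (3.47) were close to Ccne1. The helicase subunits Mcm2 to Mcm7 had factors of 1.96 (Mcm7) to 2.76 (Mcm2).

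The lists ranked libraries differently. Levels were put on the scale of log2(CPM + 0.5) minus the gene's mean on that scale over the tumour libraries. The median S phase gene was lowest in Lung-Ctr replicate 2 (-0.60), Ctr replicate 1 (-0.43) and Lung-Ctr replicate 1 (-0.41). It was highest in Ctr replicate 3 (0.45), LMP1 replicate 2 (0.42) and Lung-LMP1 replicate 1 (0.32). The median mitosis gene stayed within -0.25 (Ctr replicate 2) and 0.20 (Lung-Ctr replicate 2). Ctr replicate 1 was the lowest Ctr library for 22 of 23 S phase genes and the highest for 21 of 24 mitosis genes, against 34.7% and 38.9% of all genes tested. Lung-LMP1 replicate 1 was the highest of its group for 17 of 23 S phase genes (35.4% of all genes), and Lung-LMP1 replicate 3 for 22 of 24 mitosis genes (25.4% of all genes). The summed mitosis level divided by the summed S phase level was 3.06 in Ctr replicate 1, 2.5 and 3.63 in Lung-Ctr, and 1.33 to 2.25 in the other 7 tumour libraries. Leukocyte markers were also highest in Ctr replicate 1 (41.3 CPM) and their part in this difference was not tested.

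**Figure D2:**
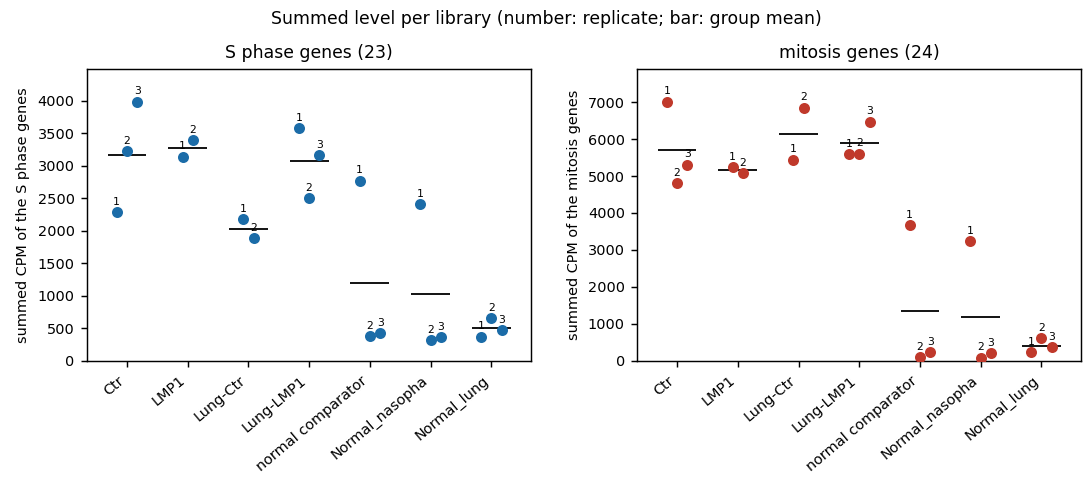
Summed CPM of the 23 S phase genes (left) and the 24 mitosis genes (right) in each library, by group; points are libraries numbered by replicate and bars are group means. S phase sums in the tumour groups spread from 1886 to 3987 CPM, mitosis sums stay between 4817 and 7020, and replicate 1 of the comparator (2769 and 3680 CPM) sits far above replicates 2 and 3.

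LMP1 against Ctr compared TMPL with TMP among libraries without the Lung prefix. Plk1 was higher and Bub1 lower in LMP1, and the other 45 members were not called. Plk1, the polo-like kinase that drives mitotic entry and spindle assembly (chromosome 7, 122159439 to 122169873), had 144.8 and 167.4 CPM in LMP1 and 112.1, 57.18 and 77.22 CPM in Ctr. Bub1, a kinase of the spindle assembly checkpoint (chromosome 2, 127801122 to 127831865), had 114.2 and 109.0 CPM in LMP1 and 234.0, 191.6 and 203.6 CPM in Ctr. For both genes the groups did not overlap. Fold changes from here on are log2 values from the edgeR fit, scaled by TMM, a normalization that balances the bulk of genes, and "called" means a Benjamini-Hochberg adjusted p under 0.05 in edgeR's quasi-likelihood test over all genes tested. Plk1 rose by 0.90 ± 0.25 (SE; adjusted p = 0.0394) and Bub1 fell by 0.93 on the log2 scale (SE 0.21; adjusted p = 0.0213). These were 2 of 47 members called, where 16.4% of the 13460 genes tested were called (7.36% higher and 9.06% lower). The groups did not overlap for 9 members higher in LMP1 and 9 lower, where they did not for 29.4% and 26.9% of all genes.

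Of the 23 S phase genes none was called in LMP1 against Ctr by edgeR. DESeq2 called 2, Gins2 and Rfc4, where it called 26% of the genes to which it gave an adjusted p. The median fold change was 0.11 for S phase and -0.12 for mitosis genes, against -0.01 for all genes. Neither median kept its size or sign throughout. That of the S phase genes was -0.18 without Ctr replicate 1, with 11 estimates above 0 and 12 below, 0.06 without LMP1 replicate 2, 0.19 without LMP1 replicate 1 and 0.36 without Ctr replicate 3. That of the mitosis genes ran from -0.19 without Ctr replicate 2 to -0.04 without Ctr replicate 1, and was 0.08 with transcript length and GC content corrected for. E2f1, a factor that turns on S phase genes, had 62.54 and 67.05 CPM in LMP1 and 15.35, 31.69 and 40.63 CPM in Ctr (log2 fold change 1.12 ± 0.43, adjusted p = 0.104). Every LMP1 library was above every Ctr library. Rfc4, a subunit of the clamp loader, had 37.86 and 39.58 CPM in LMP1 and 55.74, 65.18 and 91.62 CPM in Ctr (-0.90 ± 0.29, adjusted p = 0.0686). Pcna (0.06 ± 0.25, adjusted p = 0.897) and Mcm2 (0.47 ± 0.30, adjusted p = 0.312) were not called. Among mitosis genes Mki67 was at 0.15 ± 0.20 (adjusted p = 0.644), Top2a at -0.59 ± 0.22 (adjusted p = 0.0969), and Foxm1, the transcription factor of the mitotic programme, at 0.44 ± 0.14 (adjusted p = 0.0682). Of the 129 further cell cycle genes tested, 2 rose and 8 fell, led by Esco2, an acetyltransferase of cohesin (-1.29 ± 0.21, adjusted p = 0.00777), and Orc4, a subunit of the origin recognition complex (-1.0 ± 0.17, adjusted p = 0.00878).

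The calls of Plk1 and Bub1 in LMP1 against Ctr rest on few libraries and did not hold in every alternative. Plk1 was called in 5 of 12 alternatives and Bub1 in 8 of 12. Plk1 was not called without Ctr replicate 2 (0.70, adjusted p = 0.0556) or Ctr replicate 3 (0.87, adjusted p = 0.09). Of all genes 14.3% and 10.8% were called in these fits. Leaving out an LMP1 replicate leaves 1 library in that group, and neither call held there. Plk1 was then at 1.01 without replicate 1 and 0.79 without replicate 2, and Bub1 at -0.96 and -0.90. With transcript length and GC content corrected for, Bub1 was at -0.46 (adjusted p = 0.244), where 8.2% of all genes were called. Summed epithelial markers were lower in both LMP1 libraries than in every Ctr library, and fibroblast markers were higher than in Ctr replicates 1 and 3 and lower than in replicate 2. Their part in these calls was not tested.

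Lung-LMP1 against Lung-Ctr made the same contrast of TMPL with TMP in the libraries that carry the Lung prefix. No gene of the 13460 was called (0%), so no member was called either, and what follows on the lists describes estimates. Of the S phase genes 22 of 23 had an estimate above 0, where 46.8% of all genes did, with a median of 0.66 against -0.04 for all genes, and 14 of 23 had every Lung-LMP1 library above every Lung-Ctr library, where 15.1% of all genes did. DESeq2 called 2 of 47, Mcm7 (adjusted p = 0.0396) and Plk1 (adjusted p = 0.00863), beside 6.39% of all genes.

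The 6 helicase subunits Mcm2 to Mcm7 all had Lung-LMP1 wholly above Lung-Ctr, with fold changes of 0.66 to 0.89. Mcm2 had 189.2, 119.0 and 148.1 CPM in Lung-LMP1 and 102.2 and 68.62 CPM in Lung-Ctr (0.89 ± 0.31, adjusted p = 0.21). Mcm7 had 262.3, 219.6 and 250.2 CPM in Lung-LMP1 and 152.8 and 146.3 CPM in Lung-Ctr (0.76 ± 0.21, adjusted p = 0.147). Lung-LMP1 replicate 2 was the lowest of its group for both. The loading factor Cdc6 also had no overlap, at 0.94 ± 0.37 (adjusted p = 0.245). Cdt1, the other, was at 0.71 ± 0.24 (adjusted p = 0.192). Its groups all but touched, at 75.28 CPM in Lung-LMP1 replicate 2 and 75.27 CPM in Lung-Ctr replicate 2. Pcna had 372.0, 286.3 and 356.9 CPM against 251.0 and 200.7 CPM (0.64 ± 0.26, adjusted p = 0.257). Tyms had the highest estimate of the list, 1.05 ± 0.47 (adjusted p = 0.302), and Rfc4 the lowest, -0.01. E2f1 overlapped between the groups (0.56 ± 0.44, adjusted p = 0.54).

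Plk1 had the smallest adjusted p of all members in Lung-LMP1 against Lung-Ctr. It had 166.4, 141.4 and 164.7 CPM in Lung-LMP1 and 77.85 and 77.86 CPM in Lung-Ctr (1.07 ± 0.26, adjusted p = 0.127), again with no overlap. Mki67 was at 0.51 ± 0.20 (adjusted p = 0.25), Top2a at -0.14 ± 0.21 (adjusted p = 0.763) and Foxm1 at -0.24 ± 0.14 (adjusted p = 0.421). The median of the 24 mitosis genes was 0.05, and 15 of them had an estimate above 0. Without Lung-Ctr replicate 1 it was -0.07, with 7 above 0. None of the 129 further cell cycle genes was called. All 18 of the polymerase, clamp loader and chromatin assembly genes had an estimate above 0, with Lig1, the replicative ligase, at 1.21 ± 0.19 (adjusted p = 0.109) and Rfc2 at 0.80 ± 0.17 (adjusted p = 0.109). Lung-LMP1 and Lung-Ctr were alike in summed epithelial markers, at 4974 to 5303 and 4578 to 5492 CPM.

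Lung-Ctr against Ctr, within TMP, had lower estimates for all S phase genes and slightly higher ones for most mitosis genes. No gene was called by edgeR (0% of 13460). DESeq2 called 0 members, where it called 0.304% of all genes. All 23 S phase genes had an estimate below 0, with a median of -0.55 against 0.00 for all genes, of which 50.2% were above 0. The exception across alternatives was E2f1, at 0.24 without Ctr replicate 3, 0.41 without Lung-Ctr replicate 2 and 0.03 with the replicate block. Without Ctr replicate 3 the S phase median was -0.34. Of the mitosis genes 21 of 24 were above 0, with a median of 0.17. This median depended on single libraries: it was 0.06 with 14 of 24 above 0 without Lung-Ctr replicate 2, 0.09 with 15 above 0 without Ctr replicate 2, 0.30 without Lung-Ctr replicate 1 and 0.31 without Ctr replicate 1. For 10 of 23 S phase genes Lung-Ctr was wholly below Ctr, as it was for 9.64% of all genes. Cdc45, which joins the helicase at firing origins, had 40.25 and 42.65 CPM in Lung-Ctr and 55.00, 69.72 and 93.08 CPM in Ctr (-0.75 ± 0.23, adjusted p = 0.915). Aurka, the centrosomal Aurora kinase, had 120.6 and 143.0 CPM in Lung-Ctr and 110.7, 84.48 and 98.02 CPM in Ctr (0.49 ± 0.16, adjusted p = 0.915). Mcm2 was at -0.57 ± 0.31 (adjusted p = 0.915), Pcna at -0.49 ± 0.26 (adjusted p = 0.915) and E2f1 at -0.09 ± 0.44 (adjusted p = 0.98). Foxm1 was at 0.41 ± 0.14 (adjusted p = 0.915), Top2a at 0.13 ± 0.21 (adjusted p = 0.949) and Mki67 at -0.19 ± 0.20 (adjusted p = 0.924). The further cell cycle genes had no call, and Gins4 (-0.48 ± 0.15) and Prim1 (-0.76 ± 0.23), a GINS subunit and the primase, had the smallest adjusted p, 0.915 for both. This comparison and the one above share the Lung-Ctr libraries, so their opposite estimates are not independent.

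Lung-LMP1 against LMP1, within TMPL, gave higher estimates for most mitosis genes and mixed ones for S phase genes. No member was called, where 10.1% of all genes were. Of the mitosis genes 22 of 24 had an estimate above 0, as did 50.5% of all genes (median 0.26, against 0.01 for all genes), and 11 of 24 had Lung-LMP1 wholly above LMP1, where 20.4% of all genes did. Bub1 had 141.9, 161.5 and 188.4 CPM in Lung-LMP1 against the LMP1 values above (0.69 ± 0.21, adjusted p = 0.0702). Top2a had 1044, 1004 and 1203 CPM in Lung-LMP1 and 837.2 and 752.7 CPM in LMP1 (0.58 ± 0.22, adjusted p = 0.126). Mki67 was at 0.17 ± 0.20 (adjusted p = 0.638), and Foxm1 was opposite in sign at -0.27 ± 0.14 (adjusted p = 0.265). Of the S phase genes 9 had an estimate above 0 and 14 below, with a median of -0.08. The direction turned without Lung-LMP1 replicate 2 (15 above 0, median 0.10) and without LMP1 replicate 2 (13 above 0, median 0.08), and the median was -0.32 without Lung-LMP1 replicate 1 and -0.16 without LMP1 replicate 1. Gins2 had 9.141, 12.18 and 11.65 CPM in Lung-LMP1 and 18.38 and 17.59 CPM in LMP1 (-0.58 ± 0.23, adjusted p = 0.143). E2f1 had 40.76, 36.23 and 35.66 CPM in Lung-LMP1, all below LMP1 (-0.65 ± 0.43, adjusted p = 0.37). Pcna (0.09 ± 0.25, adjusted p = 0.859) and Mcm2 (-0.14 ± 0.30, adjusted p = 0.815) overlapped between the groups. DESeq2 called Bub1 and Kif23, beside 17.4% of all genes. In edgeR on these 5 libraries alone 6 of 47 members were called, where 20.8% of all genes were: Bub1, Cenpe, Kif23, Top2a and Ube2c higher and E2f1 lower. Of the 129 further genes, Lin54, a MuvB subunit (0.78 ± 0.16, adjusted p = 0.0195), and Orc4 (0.69 ± 0.16, adjusted p = 0.0342) rose. Scaling by total count moved the median of all genes here from 0.01 to -0.13, the mitosis median to 0.13, and the sign of Pcna with them. Summed epithelial markers were 4974 to 5303 CPM in Lung-LMP1 and 887 and 1335 CPM in LMP1, and fibroblast markers 0.406 to 1.52 CPM against 83.4 and 40.8 CPM, with no overlap in either. Their part in these differences was not tested.

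**Figure D3:**
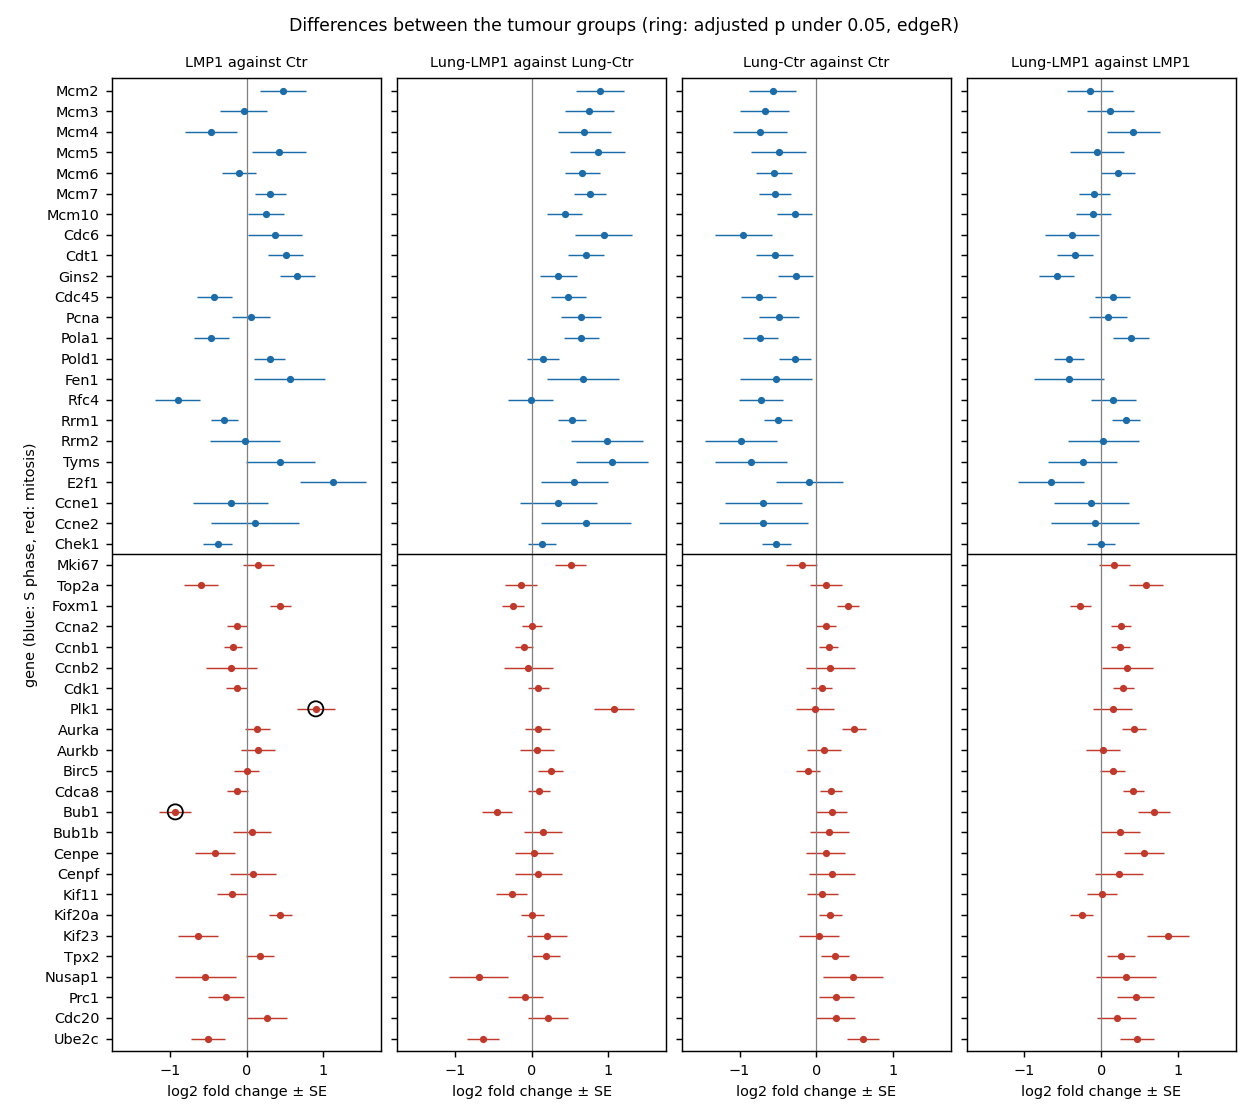
Log2 fold change of each gene (rows) with its standard error in the 4 comparisons between tumour groups, from the edgeR fit; blue is S phase, red mitosis, and rings mark an adjusted p under 0.05. Rings fall on Plk1 and Bub1 in LMP1 against Ctr alone, and the blue points lie right of 0 in Lung-LMP1 against Lung-Ctr, except Rfc4 at -0.01, and left of 0 in Lung-Ctr against Ctr, 2 comparisons that share the Lung-Ctr libraries.

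TMPL against TMP took all 10 tumour libraries with the Lung prefix as a term, and so asked what differs with LMP1 across both kinds of library. Plk1 and Cdt1 rose and Bub1 and Ube2c fell, 4 of 47 members where 12.4% of all genes were called (7.22% higher and 5.13% lower). Plk1 rose by 0.99 ± 0.17 (adjusted p = 0.01): the 5 TMPL libraries, at 141.4 to 167.4 CPM, were all above the 5 TMP libraries, at 57.18 to 112.1 CPM. It was the only member whose genotypes did not overlap in the higher direction, where 4.78% of all genes did not. Cdt1, the licensing factor that loads the helicase (chromosome 8, 122568015 to 122573554), had 136.3 and 143.6 CPM in LMP1 and 120.3, 75.28 and 107.2 CPM in Lung-LMP1. In TMP it had 89.01, 93.99 and 107.6 CPM (Ctr) and 52.85 and 75.27 CPM (Lung-Ctr). It rose by 0.61 ± 0.16 (adjusted p = 0.0399), with genotypes that overlapped. Bub1 fell by 0.69 on the log2 scale (SE 0.16; adjusted p = 0.0252), also with overlap, since Lung-LMP1 replicate 3 (188.4 CPM) was above Lung-Ctr replicate 1 (180.7 CPM). Ube2c, whose promoter is shown above, had 215.2 and 218.3 CPM in LMP1, 248.9, 276.9 and 297.5 CPM in Lung-LMP1, 382.1, 240.0 and 280.7 CPM in Ctr, and 366.9 and 514.4 CPM in Lung-Ctr. It fell by 0.56 on the log2 scale (SE 0.15; adjusted p = 0.0378), with genotypes that overlapped.

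**Figure D4:**
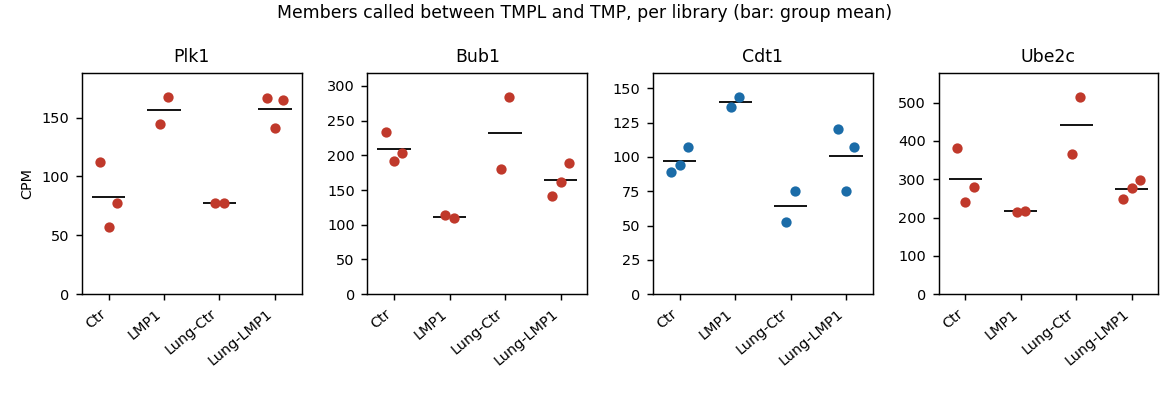
CPM of the 4 genes called in TMPL against TMP in each tumour library; points are libraries and bars are group means. Plk1 is the gene whose LMP1 and Lung-LMP1 points (141.4 to 167.4 CPM) all lie above the Ctr and Lung-Ctr points (57.18 to 112.1 CPM).

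Across genotypes 21 of 23 S phase genes had an estimate above 0, with a median of 0.35 against -0.05 for all genes, of which 46.3% were above 0. Without Lung-Ctr replicate 2 the median was 0.22, with 17 above 0. Mcm2 was at 0.68 ± 0.22 (adjusted p = 0.0753), Mcm7 at 0.53 ± 0.16 (adjusted p = 0.0576), E2f1 at 0.84 ± 0.31 (adjusted p = 0.0994) and Pcna at 0.35 ± 0.20 (adjusted p = 0.272). The mitosis genes split, with 11 of 24 above 0 and a median of -0.01, which ran from -0.05 to 0.03 with each library left out in turn. Mki67 was at 0.33 ± 0.15 (adjusted p = 0.177), Top2a at -0.37 ± 0.17 (adjusted p = 0.171) and Foxm1 at 0.10 ± 0.15 (adjusted p = 0.684). Of the 129 further genes 11 rose and 7 fell, led by Dctpp1, a nucleotide-cleansing enzyme (1.15 ± 0.19, adjusted p = 0.008), and Pkmyt1, an inhibitory kinase of Cdk1 (0.67 ± 0.11, adjusted p = 0.00821). The polymerase, clamp loader and chromatin assembly list had 5 of 18 higher and none lower, and the origin licensing and firing list 1 of 23 higher and 3 lower.

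The 4 calls differed in how they held when a library was left out. Calls over all genes fell as well, from 12.4% to 3.03% without LMP1 replicate 1 and to 1.87% without LMP1 replicate 2. Without any other single library 7.73% to 14.5% of all genes were called. Plk1 was called in 16 of 17 alternatives (adjusted p 3.41e-05 to 0.0521) and lost only without LMP1 replicate 2 (0.0521). Bub1 was lost without LMP1 replicate 1 (0.0989), LMP1 replicate 2 (0.116), Lung-Ctr replicate 2 (0.0685) or Lung-LMP1 replicate 1 (0.054), and after the length and GC correction it was at -0.37 (0.18). Cdt1 was called in 6 of 17 alternatives and was lost without Ctr replicate 1 (0.0778) or 2 (0.0743), LMP1 replicate 1 (0.0937) or 2 (0.127), Lung-Ctr replicate 1 (0.0681) or 2 (0.0502), or Lung-LMP1 replicate 1 (0.07) or 3 (0.0752). Ube2c was called in 7 of 17 and was lost without Ctr replicate 1 (0.057) or 3 (0.0539), LMP1 replicate 1 (0.109) or 2 (0.117), Lung-Ctr replicate 2 (0.0919), or Lung-LMP1 replicate 1 (0.0795), 2 (0.058) or 3 (0.069). With the replicate number as a block Plk1 alone was called. DESeq2 called 7 of 47 members, the same 4 with Gins2, Mcm2 and Mcm7 added, where it called 22.4% of all genes. The LMP1 libraries, with the lowest epithelial sums of the tumour groups, enter this comparison too.

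The interaction of genotype and Lung prefix tests directly whether the genotype difference is larger among libraries with the Lung prefix. No member passed, where 0.892% of all genes did, and DESeq2 called 1, Pola1, beside 6.71% of all genes. Of the S phase genes 20 of 23 had an estimate above 0, where 51.9% of all genes did (median 0.57, against 0.03 for all genes). The S phase median was 0.25 without Ctr replicate 3, 0.35 without Lung-LMP1 replicate 1 and 0.34 with the replicate number as a block, and with other libraries left out it ran from 0.43 to 0.84. Pola1 had 95.14 and 95.00 CPM in LMP1, 101.2, 137.1 and 148.8 in Ctr, 134.2, 86.17 and 120.2 in Lung-LMP1, and 73.74 and 76.20 in Lung-Ctr, an interaction of 1.12 ± 0.32 (adjusted p = 0.15). LMP1 was below Ctr and Lung-LMP1 above Lung-Ctr for this gene. Foxm1 was opposite in sign at -0.68 ± 0.20 (adjusted p = 0.164). The interaction was 0.58 ± 0.36 for Pcna (adjusted p = 0.483), 0.42 ± 0.43 for Mcm2 (0.707), -0.56 ± 0.61 for E2f1 (0.725), 0.37 ± 0.28 for Mki67 (0.591) and 0.44 ± 0.30 for Top2a (0.528). Pole2 (0.97 ± 0.26, adjusted p = 0.127) and Esco2 (1.04 ± 0.28, adjusted p = 0.129) led the further genes, none of which was called.

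The tumour groups were also set against the normal comparator. Comparator replicate 1 held both lists at close to tumour level, and replicates 2 and 3 did not. Mki67 had 570.9 CPM in replicate 1 and 5.955 and 24.12 CPM in replicates 2 and 3, beside 435.9 to 728.7 CPM in the tumour libraries. Top2a had 571.4, 9.869 and 40.05 CPM, beside 752.7 to 1512 CPM. Mcm5, a helicase subunit, had 253.4, 3.8 and 10.70 CPM, so that replicate 1 was above all 10 tumour libraries (82.76 to 221.1 CPM). Replicate 1 was the highest comparator library for all 23 S phase and all 24 mitosis genes, where it was the highest for 34.3% of all genes.

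Relative to the tumour median of each gene, replicate 1 was lower by a median factor of 1.18 for S phase and 1.53 for mitosis genes. It was within the tumour range for 16 of 23 S phase genes and below all 10 tumour libraries for 14 of 24 mitosis genes, where 21% of all genes were below. In replicate 2 the median factors were 9.61 and 53.1, and in replicate 3 they were 8.06 and 25.1. All 24 mitosis genes and 22 of 23 S phase genes were below every tumour library in each of these libraries (25.5% and 27.1% of all genes). The exception was E2f1, at 29.78 and 29.47 CPM, inside the tumour range of 15.35 to 67.05 CPM. Ccna2 gave the largest ratio of replicate 1 to the mean of the others among mitosis genes, 42.6, and Mcm5 among S phase genes, 32.8. Summed epithelial markers were 17862 CPM in replicate 1 and 5550 and 12281 in the others, leukocyte markers 68.6 against 299 and 138, and alveolar markers 194 against 45.1 and 46.4; their part in the difference was not tested.

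**Figure D5:**
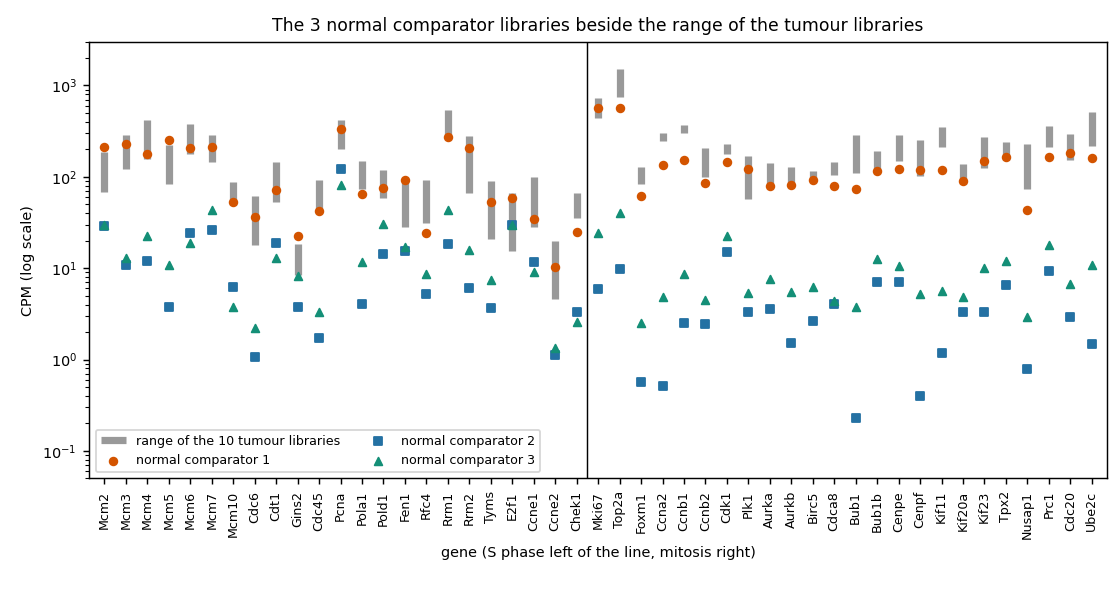
CPM (log axis) of each gene in the 3 normal comparator libraries (points) beside the range of the 10 tumour libraries (grey bars). Orange points of replicate 1 fall in or near the grey bars, while blue and green points of replicates 2 and 3 fall below them for every gene except E2f1.

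With all 3 comparator libraries the spread left few calls. Ctr against the comparator called 5 of 47 members higher, where 35.1% of all genes were called (16.1% higher). LMP1 called 3 of 47 (28.2% of all genes, 13.7% higher), Lung-Ctr 2 (27.4%, 13.2% higher) and Lung-LMP1 5 (32%, 14.6% higher), each of them higher. These 4 comparisons share the comparator, so they are read side by side. The median S phase fold change was 1.46 for Ctr, 1.54 for LMP1, 0.80 for Lung-Ctr and 1.52 for Lung-LMP1. Mitosis medians were 1.94, 1.87, 2.13 and 2.17 in that order, with medians of all genes between -0.08 and -0.02.

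Rfc4 was the member called against the comparator in all 4 tumour groups. It had 24.56, 5.275 and 8.720 CPM in the comparator and 30.97 to 91.62 CPM in the tumour libraries, with no overlap. The fold change was 2.39 ± 0.49 in Ctr (adjusted p = 0.00447), 1.54 ± 0.52 in LMP1 (0.0466), 1.66 ± 0.52 in Lung-Ctr (0.0367) and 1.66 ± 0.48 in Lung-LMP1 (0.0245). It was called in all 14 alternatives in Ctr, in 4 of 13 in LMP1 (adjusted p up to 0.389), in 5 of 13 in Lung-Ctr (up to 0.248) and in 8 of 14 in Lung-LMP1 (up to 0.266). Chek1, the replication checkpoint kinase, had 25.10, 3.290 and 2.586 CPM in the comparator and rose by 2.39 ± 0.69 in Ctr (adjusted p = 0.0215) and 2.02 ± 0.68 in Lung-LMP1 (0.0437). Pola1 rose by 2.19 ± 0.74 in Ctr (adjusted p = 0.0399) and was also called higher in Lung-LMP1. Ccne1 rose by 1.66 ± 0.56 in Ctr (0.0408), with groups that overlapped. Cdt1 rose by 1.97 ± 0.56 in LMP1 (adjusted p = 0.0249) and 1.59 ± 0.51 in Lung-LMP1 (0.0367), and Pold1, a subunit of the lagging strand polymerase, by 1.49 ± 0.49 in LMP1 (0.0441). Over the alternatives Chek1 was called in 11 of 14 in Ctr and 5 of 14 in Lung-LMP1, and Pola1 in 6 of 14 in Ctr. Cdt1 was called in 7 of 13 in LMP1 and 8 of 14 in Lung-LMP1, and Pold1 in 4 of 13 in LMP1.

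Of the mitosis genes, Nusap1 had 42.90, 0.794 and 2.887 CPM in the comparator. It rose by 3.07 ± 1.05 in Ctr (adjusted p = 0.0428) and 3.55 ± 1.12 in Lung-Ctr (0.039), and in LMP1 it was at 2.59 ± 1.10 (0.0964). Cdk1 had 143.5, 14.86 and 22.31 CPM in the comparator and rose by 1.88 ± 0.66 in Lung-LMP1 (adjusted p = 0.0495). Nusap1 was called in 4 of 13 alternatives in Ctr and 6 of 12 in Lung-Ctr, and Cdk1 in 3 of 13. Mki67 was at 1.47 ± 1.11 in Ctr, 1.67 ± 1.20 in LMP1, 1.27 ± 1.20 in Lung-Ctr and 1.80 ± 1.12 in Lung-LMP1, with adjusted p of 0.321, 0.313, 0.449 and 0.235. Top2a was at 2.42, 1.88, 2.55 and 2.42 in the same order (adjusted p = 0.0902, 0.209, 0.104 and 0.0924), and Foxm1 at 1.94, 2.43, 2.34 and 2.12 (0.187, 0.143, 0.158 and 0.159). Pcna was at 0.80, 0.90, 0.30 and 0.95 (adjusted p = 0.177, 0.178, 0.665 and 0.116), and Mcm2 at 0.45, 0.97, -0.12 and 0.78 (0.613, 0.327, 0.917 and 0.378). E2f1 was at -0.50, 0.67, -0.60 and -0.03 (adjusted p = 0.37, 0.286, 0.359 and 0.968). Of the 129 further genes, 41 rose and 2 fell in Ctr. The counts were 18 and 1 for LMP1, 25 and 2 for Lung-Ctr, 37 and 1 for Lung-LMP1. The leading ones were Orc3 (1.15 ± 0.19, adjusted p = 0.00142) and Orc4 (1.13 ± 0.19, 0.00164) in Ctr, Rfc1 (1.07 ± 0.25, 0.0125) and E2f3 (1.44 ± 0.36, 0.016) in LMP1, Ckap5, a microtubule polymerase (1.56 ± 0.26, 0.00221), and Orc4 (1.24 ± 0.21, 0.00243) in Lung-Ctr, and Ckap5 (1.39 ± 0.24, 0.00295) and Rfc1 (1.21 ± 0.23, 0.00464) in Lung-LMP1.

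Without comparator replicate 1 almost every member was called higher in the tumour libraries: 45 of 47 in Ctr (39.2% of all genes called), 46 in LMP1 (34.7%), 44 in Lung-Ctr (32.7%) and 45 in Lung-LMP1 (38.3%). All 24 mitosis genes were among them in each comparison. The exceptions were E2f1 in all 4 comparisons, Gins2 in all but LMP1, and Fen1 in Lung-Ctr. The median fold change of the mitosis genes was then 5.02, 4.98, 4.97 and 5.32 in Ctr, LMP1, Lung-Ctr and Lung-LMP1, and that of the S phase genes 3.41, 3.46, 2.56 and 3.59. Mki67 was at 5.20 in Ctr (adjusted p = 0.000134) and 5.51 in Lung-LMP1 (0.000135). With replicates 2 and 3 left out instead, the mitosis medians were 0.50, 0.38, 0.72 and 0.79 and the S phase medians 0.21, 0.34, -0.46 and 0.25, and the lone comparator library is then assumed to vary like the tumour groups. Without comparator replicate 2 the calls numbered 3 in Ctr, 0 in LMP1, 1 in Lung-Ctr and 0 in Lung-LMP1. Of all genes 30.6%, 22.9%, 23.9% and 26.2% were then called, in that order. Without replicate 3 the calls numbered 2, 0, 0 and 0, beside 27.3%, 18.7%, 21% and 20.6% of all genes. Leaving out replicates 2 and 3 together was chosen after the values were seen.

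Normal_nasopha against Normal_lung compared the normal tissues in their own table. Normal_nasopha showed the split of the comparator, with replicate 1 high, and for Mki67 all 3 Normal_lung libraries lay between it and the other two. Mki67 had 511.3, 5.198 and 22.02 CPM in Normal_nasopha and 42.95, 99.09 and 64.16 CPM in Normal_lung. Top2a had 524.4, 8.925 and 36.77 CPM against 31.04, 71.60 and 44.49 CPM. Pcna had 250.5, 90.08 and 61.47 CPM against 46.18, 94.63 and 65.13 CPM. In each gene Normal_nasopha replicate 1 was the highest of the 6 libraries, and Normal_lung replicate 2 was the highest of its group for all 23 S phase and all 24 mitosis genes (46.3% of all genes). Normal_lung replicate 2 also had the highest summed fibroblast (469 CPM, against 83.9 and 80.8) and leukocyte markers (2943 CPM, against 1672 and 2548), whose part was not tested. Summed epithelial markers were 4672 to 15048 CPM in Normal_nasopha and 1504 to 1569 CPM in Normal_lung. Leukocyte markers were 62.6 to 273 CPM and 1672 to 2943 CPM. The groups did not overlap in either, and the part of these markers in the comparison was not tested.

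No member was called in Normal_nasopha against Normal_lung by edgeR, or by DESeq2 among the 20 S phase and 18 mitosis genes to which it gave an adjusted p, and none had an unadjusted p under 0.05, where 31.1% of the 15886 genes tested were called by edgeR. The medians were 0.92 for S phase and 1.46 for mitosis genes, against 0.13 for all genes, and scaling by total count moved that last median to 0.28. Mki67 was at 1.23 ± 1.39 (adjusted p = 0.531), Top2a at 1.80 ± 1.27 (0.32), Foxm1 at 0.88 ± 1.44 (0.671), Pcna at 0.82 ± 0.53 (0.279), Mcm2 at 0.91 ± 0.77 (0.407) and E2f1 at -0.05 ± 0.29 (0.907). Ccne1, at 31.10, 10.30 and 8.344 CPM against 7.250, 7.645 and 6.557 CPM, was the S phase gene of smallest adjusted p (1.06 ± 0.51, 0.16) and did not overlap. Cenpe, a kinetochore motor, was that of the mitosis genes (2.22 ± 1.10, 0.169). Without Normal_nasopha replicate 1 the direction turned: 9 members were called lower in Normal_nasopha (32.9% of all genes called), Cdc45, Cdc6, Mcm3, Mcm5, Mcm6, Ccnb2, Cdc20, Foxm1 and Mki67, with medians of -0.67 for S phase and -1.68 for mitosis genes. Mki67 was then at -2.49 (adjusted p = 0.0412) and Foxm1 at -3.12 (0.0347). Of the 132 further cell cycle genes 6 rose and 2 fell, with Tfdp2, a dimer partner of E2F factors, at -2.17 ± 0.41 (adjusted p = 0.00852) and Mtbp, a factor of origin firing, at 1.65 ± 0.35 (0.0129).

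The 2 kinds of table did not count every member alike. The summed counts of the 3 Normal_nasopha libraries divided by those of the comparator were between 0.8 and 1.25 for 44 of 47 members, with a median of 1.15, and were 0.0406 for Fen1, the flap endonuclease, 0.692 for Prc1, the cytokinesis bundling protein, and 2.17 for Ccne2. Fen1 had 92.92 CPM in comparator replicate 1 and 2.757 CPM in Normal_nasopha replicate 1, so its level in the normal tissues is not set beside that in tumours.

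The authors' deposited tables gave their own calls at an adjusted p under 0.05, and the share of all genes is over those with an adjusted p there. For LMP1 against Ctr the authors' deposited table called 5 members higher (Cdt1, E2f1, Foxm1, Gins2 and Plk1) and 2 lower (Bub1 and Rfc4), where it called 27.7% of all genes. For Lung-LMP1 against LMP1 the authors' deposited table called 7 higher (Aurka, Bub1, Cdca8, Cenpe, Kif23, Top2a and Ube2c) and E2f1 lower, where it called 26.2% of all genes. For Lung-LMP1 against Lung-Ctr the authors' deposited table called Mcm7 and Plk1 higher, beside 3.42% of all genes. The authors' deposited table called none in Lung-Ctr against Ctr (0.222% of all genes) or in Normal_nasopha against Normal_lung (31% of all genes). In the latter it gave no adjusted p for 9 of the 47 members. In Ctr against the comparator, the authors' deposited table called 7 members higher (Ccne1, Chek1, Mcm6, Nusap1, Pola1, Rfc4 and Rrm1) and gave no adjusted p for 7, where it called 28.8% of all genes.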

How the data were processed

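Polyadenylated RNA of 16 libraries was analysed, with 3 further normal comparator columns. The deposited tables hold raw counts per gene made by the authors. STAR, DESeq2, DESeq and the mm10 build are named in the submitters' processing notes, while a counting tool or annotation was not given in the sources used here. Log2 fold changes and p-values of the authors' own comparisons are also deposited. A further 32 columns of per-sample scaled values were not used.

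Counts were tested with edgeR 4.0.16 (quasi-likelihood, TMM, robust, filterByExpr, R 4.3.3) over all genes that passed the filter, with Benjamini-Hochberg adjusted p-values called under 0.05. Tumour groups, tumour groups with the comparator, and normal tissues were fitted in separate models, for 11 comparisons. Levels are CPM, counts scaled by the total count of the library. Alternatives were DESeq2 1.42.0, other scalings, no filter, each replicate left out, the replicate number as a block, the compared groups alone, and a length and GC correction (mgcv 1.9.3). The fit was tested on simulated counts with the same spread set for every gene. In LMP1 against Ctr it recovered 37% of 2-fold and 96% of 4-fold changes, with 3.62% of calls false. In Ctr against the comparator these were 47%, 93% and 7.28%, and in Normal_nasopha against Normal_lung 37%, 97% and 6.29%. A member that was not called may therefore still differ by 2-fold. Members varied far more between normal libraries than was simulated, Mki67 from 5.955 to 570.9 CPM in the comparator. These recovery rates therefore do not hold for the members in comparisons with the comparator or Normal_nasopha. A member not called there may differ by 4-fold or more. The members and gene lists were chosen with earlier results of these data known. Genes named in every comparison are Mki67, Top2a, Foxm1, Pcna, Mcm2 and E2f1, with the 3 called members of smallest adjusted p in each list and direction or, where a list had none, its member of smallest adjusted p, and 2 further cell cycle genes of smallest adjusted p. The labels do not say that replicates are separate cultures or animals, and the spread behind each p-value may therefore be technical. Whether counting used strand was likewise not stated. A further leukocyte marker of the list is not reported here and is in no sum.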

Additional observations from a re-analysis of the deposited data

How the results depend on the processing

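Numbers of members called changed with the tool and with single libraries. The share of all genes called is in brackets where given. By DESeq2 the numbers were 6 in LMP1 against Ctr (26%), 2 in Lung-LMP1 against Lung-Ctr (6.39%) and 2 in Lung-LMP1 against LMP1 (17.4%). They were 7 in TMPL against TMP (22.4%), 1 in the interaction (6.71%) and 8 in Ctr against the comparator (39.3%). In the comparisons with the comparator DESeq2 gave an adjusted p to 21 S phase and 3 mitosis genes. With only the groups compared they were 1 in LMP1 against Ctr (13.7%), 6 in Lung-LMP1 against LMP1 (20.8%) and 1 in Ctr against the comparator (22.4%). In LMP1 (16.7%), Lung-Ctr (1.24%) and Lung-LMP1 (22.7%) against the comparator they were 0. With the length and GC correction they were 0 in LMP1 against Ctr (8.2%) and 2 in TMPL against TMP (6.14%). Against the comparator they were then 0 in Lung-Ctr (18.3%) and 3 in Lung-LMP1 (26.8%). With no filter on low counts they were 2, 1, 1 and 2 in Ctr, LMP1, Lung-Ctr and Lung-LMP1 against the comparator. With RLE size factors there was 1 in LMP1 against it (27.2%). TMPL against TMP with no term for the Lung prefix called 1. Without comparator replicates 2 and 3 there were 10 in Lung-Ctr, and without Normal_nasopha replicates 2 and 3 there were 46 in Normal_nasopha against Normal_lung. Leaving out each library in turn gave 0 to 2 in LMP1 against Ctr, 0 to 4 in TMPL against TMP, 1 to 45, 0 to 46, 0 to 44 and 0 to 45 in Ctr, LMP1, Lung-Ctr and Lung-LMP1 against the comparator, 0 to 9 in Normal_nasopha against Normal_lung, and 0 in the other comparisons. Without comparator replicates 2 and 3, Gins2 was called lower in Lung-Ctr and the mitosis genes called there were higher. A smaller share of all genes was called in that fit than in the main one. Without Normal_nasopha replicates 2 and 3 every called member was higher, and a larger share of all genes was called than in the main fit. A lone library left in a group is assumed to vary like the other groups, and these calls rest on that assumption. The cause of these changes was not tested.

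With the replicate number as a block, 0 members were called in LMP1 against Ctr (3.59% of all genes) and 1 in TMPL against TMP (5.83%). Against the comparator 1 each was called in LMP1 (17.9%) and Lung-Ctr (18.4%). In Ctr 4 S phase and 2 mitosis genes were then called (28.9%), and in Lung-LMP1 5 and 2 (24.9%). The main fit had called 4 S phase genes and 1 mitosis gene in each of Ctr and Lung-LMP1. Deviations of same-numbered libraries correlated at -0.33 to 0.17 in 23 pairs of tumour and comparator groups and at -0.20 to -0.10 in 3 pairs of normal groups. Those of other-numbered libraries ran from -0.45 to 0.41 in 44 pairs and from -0.09 to 0.17 in 6. Deviations from the mean of a group of 2 or 3 offset each other. These correlations therefore cannot settle whether same-numbered libraries belong together, and the labels give only the number. Signs turned under the block for E2f1 in Lung-Ctr against Ctr (0.03), Pcna in Lung-LMP1 against LMP1 (-0.02), Mcm2 in Lung-Ctr (0.04) and E2f1 in Lung-LMP1 (0.00) against the comparator, and Mki67 (-1.27), Top2a (-0.11) and Foxm1 (-1.84) in Normal_nasopha against Normal_lung.

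Signs of uncalled named genes also turned elsewhere. Under total count scaling Pcna was at -0.04 in Lung-LMP1 against LMP1 and E2f1 at 0.10 in Normal_nasopha against Normal_lung. Under the length and GC correction Top2a was at 0.03 in Lung-LMP1 against Lung-Ctr, Pcna at -0.19 in Lung-LMP1 against LMP1, Foxm1 at -0.05 in TMPL against TMP and E2f1 at 0.27 in Lung-LMP1 against the comparator. Without comparator replicates 2 and 3, Mki67, Pcna and Mcm2 were at -0.02, -0.09 and -0.76 in Ctr, Pcna and Mcm2 at -0.03 and -0.29 in LMP1, Mki67 and Pcna at -0.22 and -0.58 in Lung-Ctr, and Mcm2 at -0.45 in Lung-LMP1. Without Normal_nasopha replicates 2 and 3, E2f1 was at 0.48. With each library left out in turn, fold changes that crossed 0 ran from -0.02 to 0.28 for Mki67 and -0.18 to 0.28 for Pcna in LMP1 against Ctr, and from -0.36 to 0.09 for Top2a in Lung-LMP1 against Lung-Ctr. In Lung-Ctr against Ctr they ran from -0.09 to 0.34 for Top2a and -0.86 to 0.41 for E2f1, in Lung-LMP1 against LMP1 from -0.35 to 0.01 for Mcm2, and in the interaction from -1.06 to 0.19 for E2f1. Against the comparator they ran from -0.03 to 1.12 for Pcna and -0.54 to 1.50 for Mcm2 in Lung-Ctr, and from -0.21 to 0.36 for E2f1 in Lung-LMP1. In Normal_nasopha against Normal_lung they ran from -2.49 to 1.79 for Mki67, -1.25 to 2.35 for Top2a, -3.12 to 1.44 for Foxm1, -0.03 to 1.14 for Pcna, -0.73 to 1.31 for Mcm2, -0.29 to 2.71 for Cenpe and -0.46 to 0.09 for E2f1. The lowest value was the one without Normal_nasopha replicate 1 for each of these.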
